A study of Mus musculus with 2 samples.

Results

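The islet autoantigen genes examined here were 10 genes whose proteins are known targets of the immune response in type 1 diabetes: Ins1, Ins2, Gad1, Gad2, Ptprn, Ptprn2, Slc30a8, Chga, Iapp and G6pc2. They were chosen by name and matched to the platform's gene symbols, using probe sets annotated with 1 symbol. Of the 10 genes, 9 were found, each with 1 probe set, among 19938 named genes. Ins1 was not matched to a probe set and was not analysed here.

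The study hybridised 2 Affymetrix arrays, 1 for each genotype. The Tg array carried RNA of cortical thymic epithelial cells (cTECs), the epithelium that positively selects thymocytes, from mice in which Aire was expressed under the promoter of the β5t thymoproteasome gene, Psmb11. The non-Tg array carried RNA of the same cell type from control mice. Per the labels, the cells came from 7 Tg and 5 non-Tg mice, read here as pools, and both groups were NOD mice, a strain that develops autoimmune diabetes, at day 7. With 1 array per group there was no replicate error, no test was made, and pool, amplification and genotype cannot be told apart.

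Medullary thymic epithelial cells use the transcriptional regulator AIRE to transcribe genes of peripheral tissues, and thymocytes that recognise the resulting peptides are deleted or become regulatory T cells. Insulin is the best known islet antigen displayed in this way, from the Ins2 gene in the mouse. The cortex does not normally express Aire. The design thus allows the question whether islet antigens are transcribed when Aire is placed in cortical epithelium.

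The 9 measured autoantigen genes lay at the dim end of both arrays. Their log2 levels ran from 4.50 to 5.40 on the Tg array and from 4.65 to 5.79 on the non-Tg array, with medians of 5.03 and 5.09. For scale, the 25th and 50th percentiles of all 28856 probe sets were 4.79 and 5.43 on the Tg array and 4.81 and 5.45 on the non-Tg array. A gene was taken as past the filter if it reached the 50th percentile on at least 1 array. This held for 1 of the 9 genes, Chga, against 57.3% of all named genes. On the Tg array 0 of the 9 reached the 50th percentile and on the non-Tg array 1 did, against 54.0% and 54.1% of all named genes. The lower mark, the 25th percentile, was reached by 5 of the 9 on the Tg array and 7 on the non-Tg array, against 80.2% and 80.4% of all named genes. None of the 9 reached the 75th percentile on either array.

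**Figure D1:**
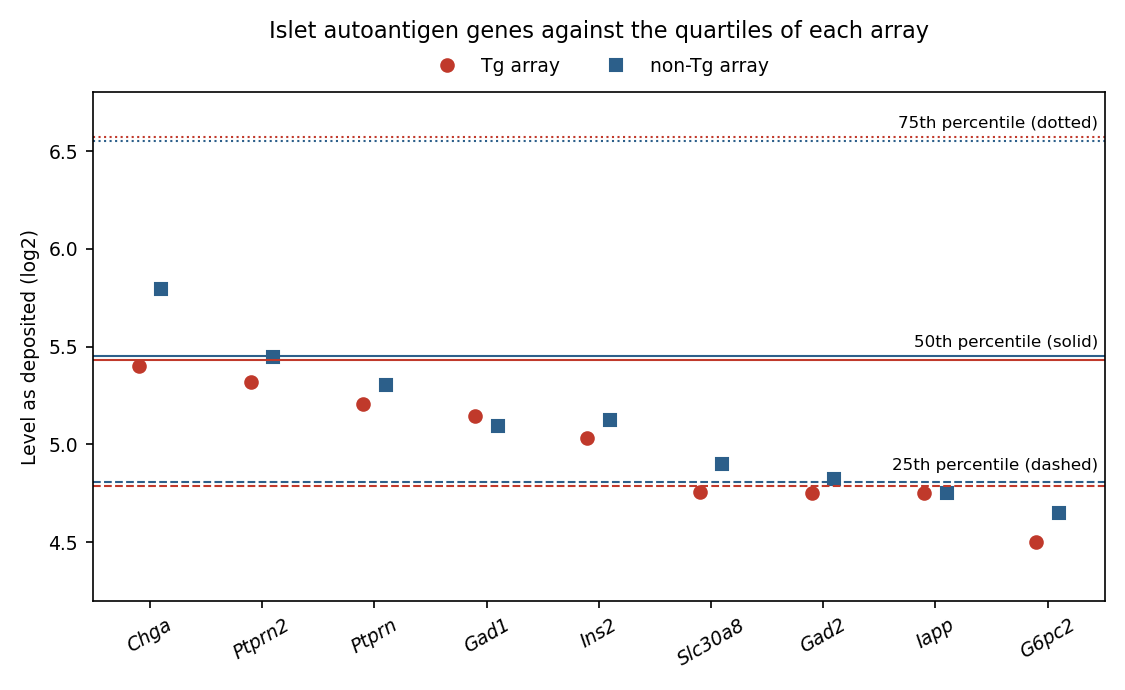
Log2 level of the single probe set of each of 9 islet autoantigen genes on the Tg array (circles) and the non-Tg array (squares), ordered by mean level. Horizontal lines mark the 25th, 50th and 75th percentiles of all probe sets of the array of the same colour. Chga on the non-Tg array, at 5.79, is the one value above the solid 50th percentile lines, and G6pc2 and Iapp lie under the dashed lines on both arrays.

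Aire itself was separated between the arrays. Its level was 7.33 on the Tg array, percentile 84.0 of all probe sets, and 6.06 on the non-Tg array, percentile 66.2. Its log2 ratio of Tg over non-Tg was 1.28, a 2.43-fold difference. Psmb11 had 10.51 on the Tg array and 10.15 on the non-Tg array. The signal of Aire on the array that carries the transgene therefore stood 1.90 log2 units above that array's 50th percentile, while 0 of the 9 autoantigen genes stood above it there.

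Among the hormones, Ins2 encodes one of the mouse proinsulins and Iapp encodes amylin, which is stored with insulin in the beta cell granule. Ins2 (probe set 10569358) had a level of 5.03 on the Tg array and 5.13 on the non-Tg array. On the Tg array this was 0.25 above the 25th percentile and 0.40 below the 50th, and on the non-Tg array 0.32 above and 0.33 below. Ins2 was thus dim on both arrays, and lower on the Tg array by a log2 ratio of -0.09. Iapp (probe set 10542632) had 4.75 on both arrays, equal to the last deposited digit, and lay under the 25th percentile by 0.04 on the Tg array and 0.06 on the non-Tg array. Exactly equal values were given for 809 probe sets, 2.80% of all, so that the identity is not peculiar to Iapp.

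Gad1 and Gad2 encode the 2 forms of glutamate decarboxylase, the enzyme that makes the transmitter GABA. The product of Gad2 is the form to which human patients commonly carry autoantibodies. Gad1 (probe set 10472707) had 5.15 on the Tg array and 5.09 on the non-Tg array, a log2 ratio of 0.05. It was the only one of the 9 genes with a higher value on the Tg array. Gad2 (probe set 10469672) had 4.75 and 4.82, a log2 ratio of -0.07. Both values of Gad2 lay close to the 25th percentile, 0.03 below it on the Tg array and 0.01 above it on the non-Tg array, whereas Gad1 lay 0.36 and 0.29 above it.

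The 3 autoantigen genes with the highest signal, Chga, Ptprn2 and Ptprn, all encode proteins of the secretory granule. So do the dimmer Ins2, Slc30a8 and Iapp, so that this trait is not particular to the brightest 3. Ptprn and Ptprn2 encode IA-2 and phogrin, receptor-type tyrosine phosphatase relatives that span the granule membrane. Ptprn (probe set 10355813) had 5.21 on the Tg array and 5.30 on the non-Tg array, a log2 ratio of -0.10. Ptprn2 (probe set 10399121) had 5.32 and 5.45, a log2 ratio of -0.13. Ptprn2 lay just outside the filter: its value on the non-Tg array was 0.01 under the 50th percentile, while on the Tg array it was 0.11 under. Slc30a8 encodes ZnT8, the transporter that loads zinc into insulin granules. Its levels (probe set 10424086) were 4.76 and 4.90, with a log2 ratio of -0.14, and the value on the Tg array lay 0.03 under the 25th percentile.

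Chga encodes chromogranin A, a soluble protein of dense-core granules and, in NOD mice, a source of peptides seen by diabetogenic CD4+ T cells. It was the brightest autoantigen gene on both arrays and the one with the widest difference. Its level (probe set 10397882) was 5.40 on the Tg array, 0.03 under the 50th percentile, and 5.79 on the non-Tg array, 0.34 above it. It therefore passed the filter through the non-Tg array only. The log2 ratio of -0.39 corresponds to a level 1.31-fold higher on the non-Tg array. With a filter that a gene can pass on 1 array, a gene this close to it passes on the array where it is higher, so its passing supports nothing about the difference.

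G6pc2 encodes IGRP, an islet glucose-6-phosphatase subunit whose peptides are seen by many CD8+ T cells of NOD islets. It was the dimmest of the 9 genes. Its level (probe set 10472531) was 4.50 on the Tg array and 4.65 on the non-Tg array, 0.28 and 0.16 under the 25th percentiles. The log2 ratio was -0.15 as deposited. Both values lay under the floor used for ratios, which was 4.80, the 25th percentile of the pooled values, and the ratio with that floor was 0.

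Promoter sequence is shown for Chga, the brightest of the 9 genes and the one past the filter, and for Iapp, whose 2 values were equal. The sequences are from RefSeq on GRCm38.p6, cover the 250 bases before the annotated gene start and run 5′ to 3′ on the plus strand. The Chga stretch is chr12:102554691-102554940 and the Iapp stretch is chr6:142298175-142298424. Capitals mark matches to TGACG, the core of the cyclic AMP response element, and to TATAA, the core of a TATA box.
Chga: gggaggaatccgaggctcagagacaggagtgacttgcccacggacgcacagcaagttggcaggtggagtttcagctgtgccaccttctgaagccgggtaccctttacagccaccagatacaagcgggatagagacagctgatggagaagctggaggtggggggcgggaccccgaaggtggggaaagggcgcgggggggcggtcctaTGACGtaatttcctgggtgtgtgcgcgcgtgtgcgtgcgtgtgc
Iapp: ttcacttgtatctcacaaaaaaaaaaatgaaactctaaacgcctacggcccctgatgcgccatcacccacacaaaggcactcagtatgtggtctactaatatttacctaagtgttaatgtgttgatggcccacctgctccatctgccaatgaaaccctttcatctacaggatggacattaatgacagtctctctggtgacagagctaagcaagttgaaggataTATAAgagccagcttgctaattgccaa
The capitals in Chga begin 44 bases before the start and those in Iapp 27 bases before it.

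The letters TGACG, on either strand, were found in the 250 bases before the start in 17.8% of 32851 RefSeq promoters, and TATAA in 22.8%. The motif GCCATCTG, the E box of rodent insulin promoters, was found in 1.11%. Promoter entries were found for 8 of the 10 autoantigen genes, 10 entries in all, and not for Ins2 or Slc30a8. TGACG was in 3 of the 10 entries, TATAA in 3 and GCCATCTG in 1, that of Ins1. The matches in Chga, Iapp and Ins1 lay before the annotated gene start. Those in Ptprn and Gad2 (TGACG) and Gad1 (TATAA) lay before other starts of these genes. The motifs do not overlap one another in the printed stretches, and a match is a run of letters and not a measured binding site.

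How far these signals lay from background could also be read against genes that are rarely transcribed outside sense organs. The 1224 named genes for receptors of smell and taste (symbols starting Olfr, Vmn1r, Vmn2r or Tas2r) had median levels of 4.54 on the Tg array and 4.55 on the non-Tg array. Of these, 2.61% passed the filter. Chga lay at percentile 97.5 of the receptor genes on the Tg array and at percentile 98.9 on the non-Tg array. Ins2 lay at percentiles 92.6 and 94.1 and Iapp at percentiles 78.9 and 77.1. G6pc2 lay inside the middle of the receptor genes, at percentile 43.9 on the Tg array and 66.3 on the non-Tg array. Probe sets bind with different strength, so these places order signals and not numbers of transcripts.

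**Figure D2:**
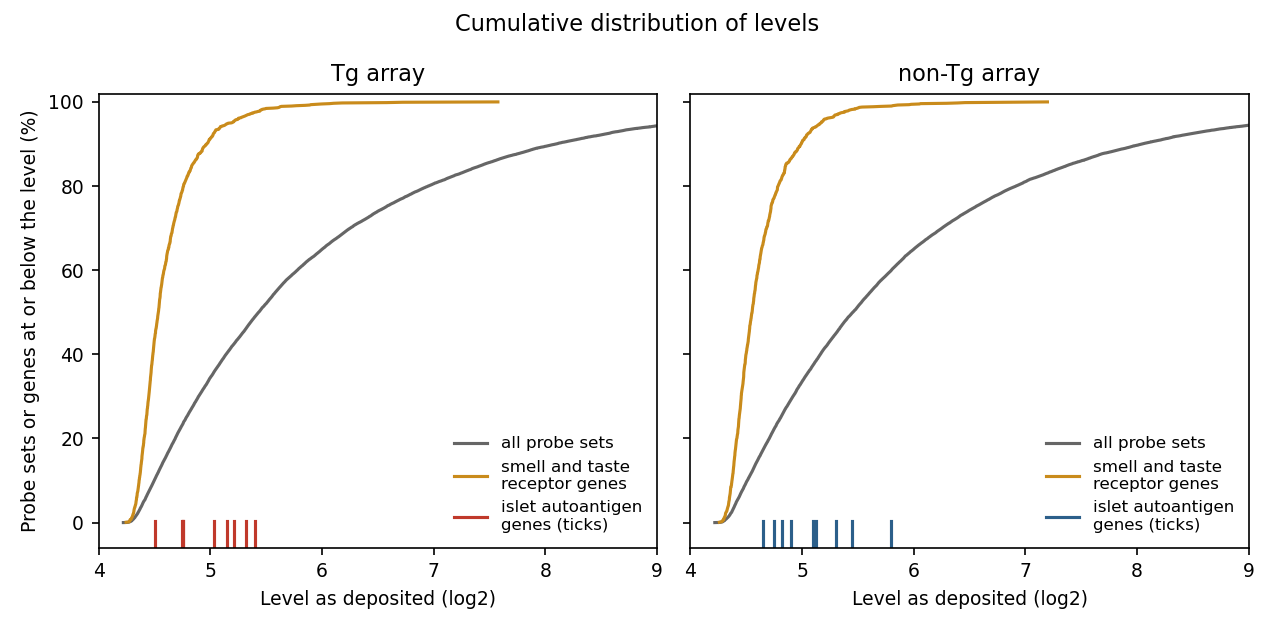
Cumulative share (%) of all 28856 probe sets and of the 1224 smell and taste receptor genes at or below each log2 level, on the Tg array (left) and the non-Tg array (right), with ticks at the 9 autoantigen genes. The ticks lie in the lower range of all probe sets, between percentiles 10.3 and 49.0 on the Tg array and 17.2 and 59.8 on the non-Tg array. Most of them sit above the bulk of the receptor genes.

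The order of the 9 genes was nearly the same on both arrays. From the highest mean level it ran Chga, Ptprn2, Ptprn, Gad1, Ins2, Slc30a8, Gad2, Iapp and G6pc2, and 7 of the 9 held the same rank on both arrays. Gad1 and Ins2 exchanged places. The closest available measure of error was an SD of 0.302 for the log2 ratio of 1 probe set. It was estimated from the 2 brightest probe sets past the filter of each of 658 genes. Both probe sets of a gene read the same RNA, so that differences between mice or pools are not in this SD. It is an error of a difference between the arrays and not between genes, and with 1 array per group the order of neighbouring genes could not be tested.

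Between the genotypes, 0 of the 9 genes were 2-fold higher and 0 were 2-fold lower in Tg. Over all genes past the filter the shares were 0.797% and 0.376%, and since 1 of the 9 passed, these counts rest on Chga alone. Of the 9 ratios as deposited, 7 were below 0, 1 was above 0 and 1 was 0, where 51.7% of all named genes lay below 0. Their median was -0.10, against -0.01 over all named genes, and their range was -0.39 to 0.05. Over all 8317 named genes with mean levels in the range of these 9 genes, 55.9% were lower in Tg and the median log2 ratio was -0.03. For 8 of the 9 genes the difference was within 0.302, the exception being Chga, and 18.4% of all named genes exceeded that size. The SD of 0.302 comes from probe sets past the filter, which these 8 genes did not pass, so it was not measured at their level.

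The spread of ratios narrowed from the level of Chga down to that of G6pc2. A narrow spread was not limited to dim levels, since genes within 0.1 of the mean level of the bright Psmb11 had an SD of 0.197. Genes within 0.1 of the mean level of Chga, 1387 in number, had ratios with an SD of 0.270 and a median of -0.05. The 1646 genes within 0.1 of Ins2 had an SD of 0.175, and the 1768 around G6pc2 had an SD of 0.0926. These SDs describe how closely dim values are held together on both arrays. As deposited, the ratios of Chga (-0.392) and G6pc2 (-0.147) were wider than the SD at their level. So was that of Slc30a8 (-0.143, against an SD of 0.137), and those of the other genes were not. Slc30a8 and Gad2 on the Tg array and Iapp and G6pc2 on both arrays lay under the floor, and with the floor their ratios were -0.10, -0.02, 0 and 0. At these levels a change in transcripts that stays near background was not detectable.

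**Figure D3:**
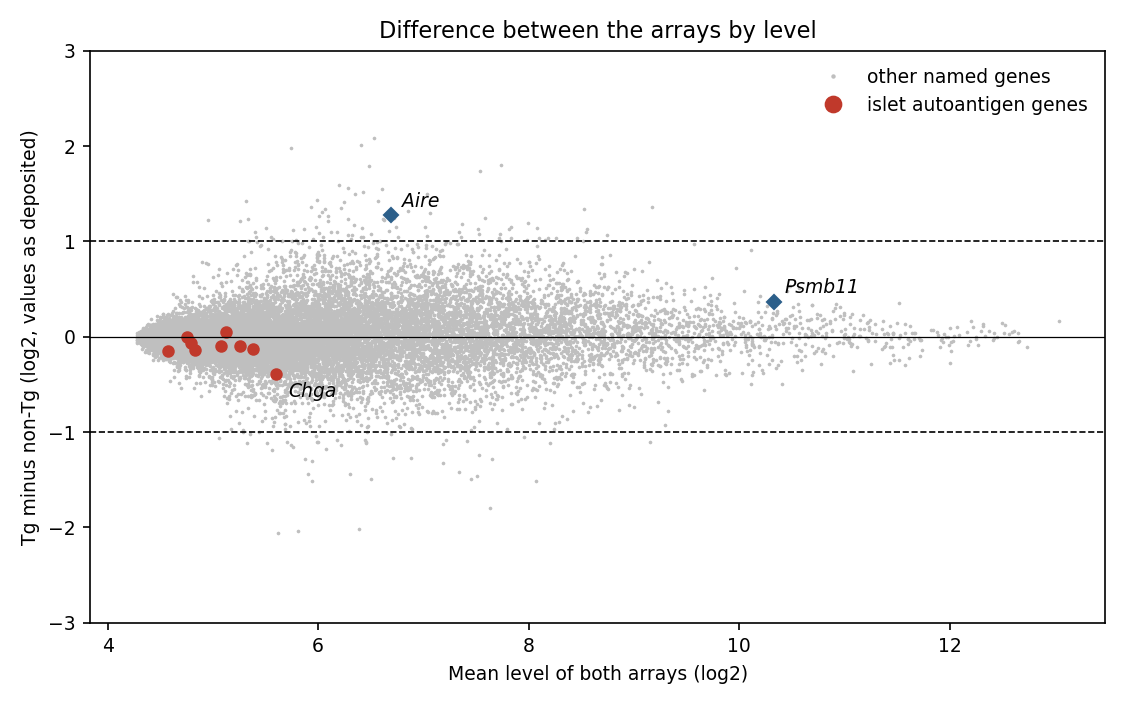
Log2 difference of Tg minus non-Tg, values as deposited, against the mean log2 level of both arrays for all named genes (grey), the 9 islet autoantigen genes (red circles) and Aire and Psmb11 (blue diamonds). Dashed lines mark a 2-fold difference. The autoantigen genes lie at the dim end between -0.39 and 0.05, and Aire lies above the upper dashed line at 1.28.

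Several relatives of the autoantigen genes passed the filter, which 57.3% of all named genes also did, so passing it does not set a relative apart. The share that passed lay above 57.3% in the Slc30 and calcitonin families. It lay below 57.3% in the glucose-6-phosphatase, insulin and relaxin, decarboxylase and GABA lists. Of the other 9 zinc transporters of the Slc30 family, 8 passed the filter, with Slc30a9 at 7.12 on the Tg array and 7.58 on the non-Tg array and Slc30a1 at 7.11 and 7.17. In the glucose-6-phosphatase system, 1 of 3 genes passed, the widely expressed catalytic subunit gene G6pc3 at 6.81 and 6.70. Slc37a4, the transporter that supplies the enzyme, had 5.11 and 5.23. Among calcitonin family genes, the relatives of Iapp, 2 of 3 passed, and adrenomedullin (Adm) had 7.36 and 7.51 and Adm2 5.90 and 5.71. Insulin and relaxin family genes had 3 of 6 past the filter, with Igf2 at 5.82 and 5.65 and Rln3 at 5.71 and 6.16. Insl6, an insulin-like gene named here after its values were seen, was the third, at 6.01 on the Tg array and 5.17 on the non-Tg array. Its log2 ratio of 0.84 (1.79-fold) did not reach 2-fold. It was the widest after that of Aire in the gene lists used here, the smell and taste receptor genes left aside. Insl6 passed the filter through the Tg array only, since 5.17 lies under the 50th percentile of 5.45 on the non-Tg array. Its passing therefore supports nothing about the difference.

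The decarboxylase relatives of Gad1 and Gad2 had 1 of 4 past the filter, Csad, an enzyme of taurine synthesis, at 6.75 on the Tg array and 6.65 on the non-Tg array. Hdc, which makes histamine, had 5.10 and 5.12. Of 4 measured genes that break down or carry GABA, 2 passed, among them the GABA transaminase gene Abat at 8.53 and 8.09 and Aldh5a1, which acts in the next step of GABA breakdown, at 5.96 and 6.04. In these 6 families 0 genes were 2-fold apart in either direction. Over all genes past the filter 0.797% were 2-fold higher and 0.376% lower in Tg. A count of 0 in lists this small, here and below, therefore says little about their genes.

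**Figure D4:**
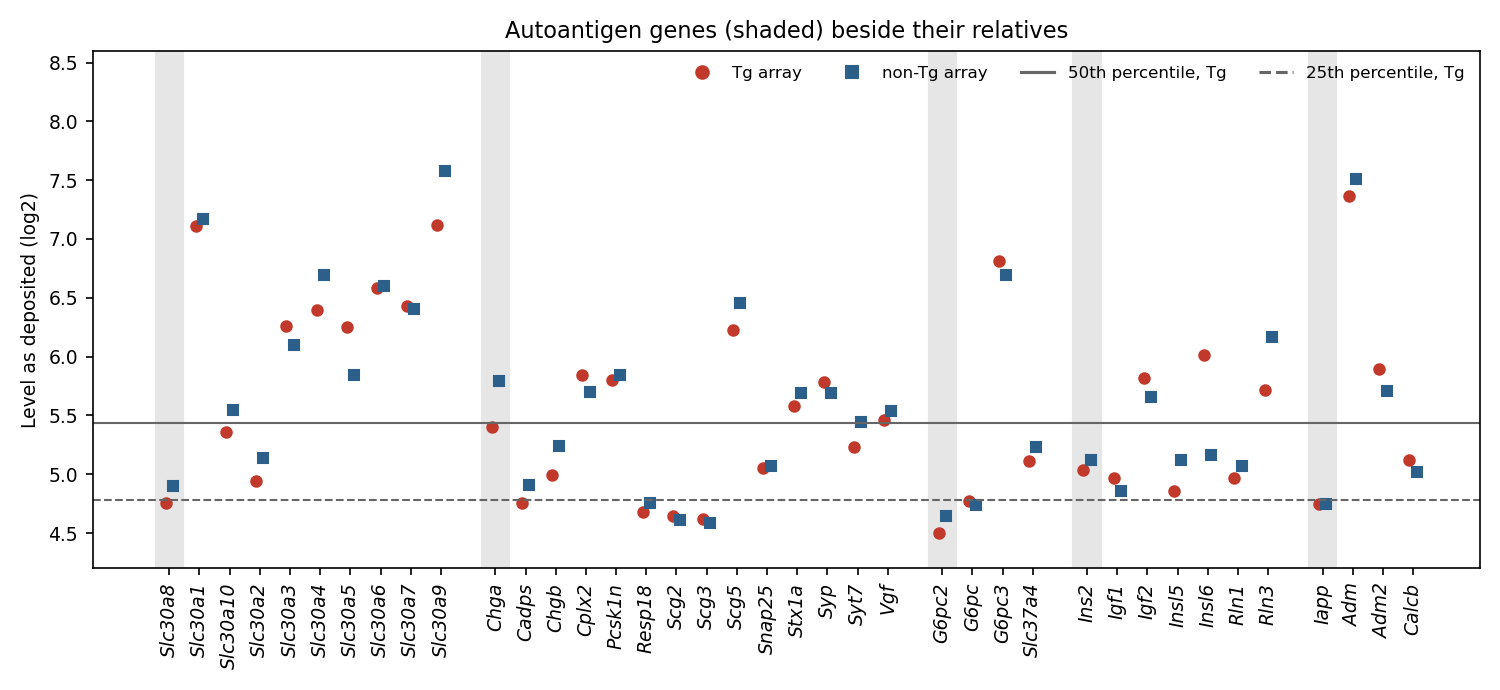
Log2 level on the Tg array (circles) and the non-Tg array (squares) of 5 autoantigen genes (shaded) beside their relatives or, for Chga, other dense-core granule genes. Horizontal lines mark the 50th and 25th percentiles of the Tg array. Slc30a8 and G6pc2 lie near or under the 25th percentile, and Slc30a9 and G6pc3 lie above the 50th. Dim relatives, named after their values were seen, are G6pc, at 4.77 and 4.74, and Slc30a2, at 4.95 and 5.13.

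Other genes of the beta cell differed in how many passed the filter, which 57.3% of all named genes did. Of 13 measured beta cell transcription factors 3 passed, 23.1%, and the brightest were Isl1, a LIM homeobox gene, at 7.63 on the Tg array and 7.58 on the non-Tg array, and Mafa, an activator of insulin transcription, at 5.71 and 5.67. Of 12 genes of beta cell function 4 passed, 33.3%. They included Glp1r, the receptor for the incretin GLP-1, at 7.52 and 7.79, and Ero1b, an oxidase of the endoplasmic reticulum that helps fold proinsulin, at 6.61 and 6.83. Of 5 other hormones of the islet 3 passed, 60.0% and thus near the share of all genes, with peptide YY (Pyy) at 5.95 and 6.16 and pancreatic polypeptide (Ppy) at 5.95 and 6.02. Medians of the log2 ratio as deposited were -0.02, -0.03 and -0.06 for these 3 lists, and 0 genes in them were 2-fold apart.

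Of 13 measured dense-core granule and neuroendocrine genes, 6 passed the filter, 46.2% against 57.3% of all named genes, and no member differed 2-fold. Scg5, a chaperone of the prohormone convertase PC2, had 6.23 on the Tg array and 6.45 on the non-Tg array, and Pcsk1n, an inhibitor of the convertase PC1, had 5.80 and 5.85. The closest relative of Chga, Chgb, was named here after its values were seen and had 5.00 and 5.24. Their ratios lay below 0 for 9 genes and above 0 for 4, with a median of -0.08 and a range from -0.25 to 0.14. Other lists of mostly dim genes differed in direction. Ratios lay below 0 for 7 of 10 pancreatic acinar markers, 6 of 7 B cell markers and 7 of 13 beta cell transcription factors. For macrophage and dendritic cell markers this held for 3 of 12, and over all named genes not past the filter for 56.0%.

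Other reported diabetes autoantigens included bright genes. Of 13 measured genes, 7 passed the filter, 53.8% and thus near the 57.3% of all named genes. Brightest were the chaperone genes Hspd1, at 11.20 on the Tg array and 11.22 on the non-Tg array, and Hspa5, at 10.90 and 10.71. All cells express both. None of the 13 genes was 2-fold apart, and 7 ratios lay above 0 and 6 below. Among 10 measured genes widely used as Aire-dependent antigens, a list that includes Ins2, 3 passed the filter, and no member differed 2-fold. Of these, Pcp4, a Purkinje cell gene, had 5.57 and 5.36 and Tff3, a secretory peptide of goblet cells, had 5.61 and 5.58.

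**Figure D5:**
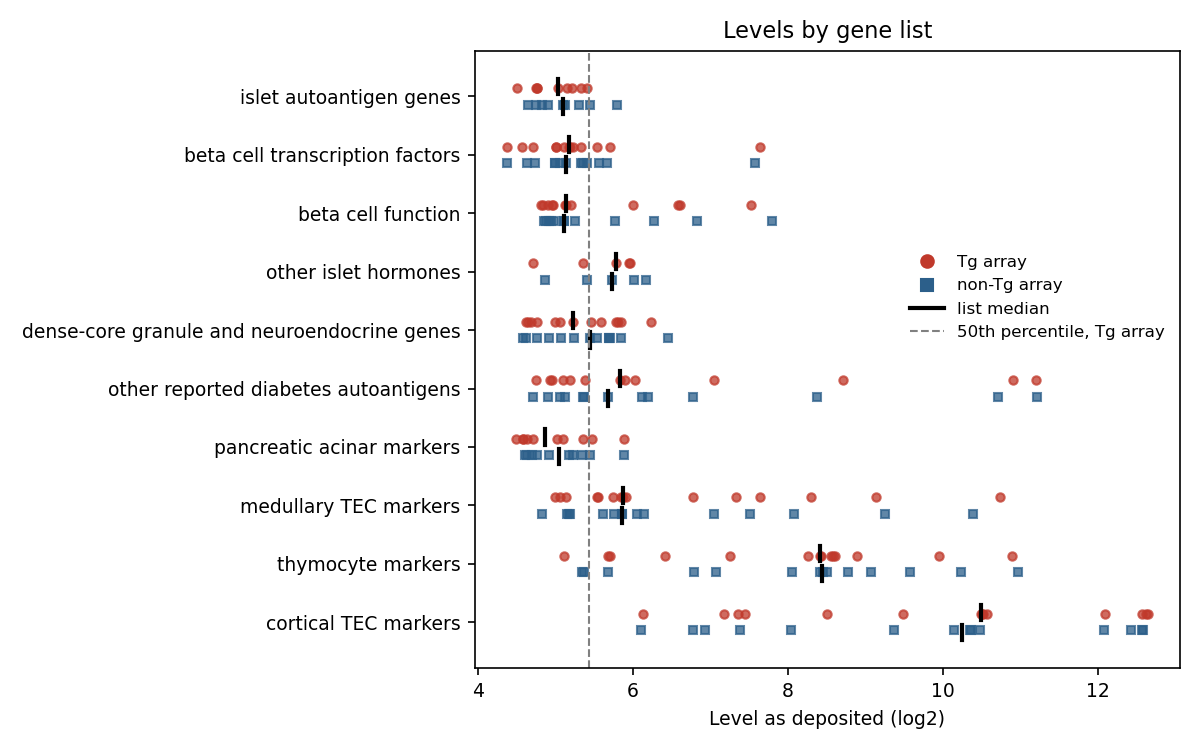
Log2 levels of each measured gene of 10 lists on the Tg array (circles) and the non-Tg array (squares), with the list medians as black bars and the 50th percentile of the Tg array as a dashed line. The median of the islet autoantigen genes is 5.03 on the Tg array and that of cortical TEC markers 10.50.

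Markers of the labelled cell type were bright on both arrays, although levels in bulk RNA cannot tell fewer cells of a type from less RNA per cell. All 14 cortical TEC markers passed the filter, against 57.3% of all named genes, with Ccl25 at 12.64 and 12.58 and Krt8 at 12.62 and 12.57. Their ratios were above 0 in 14 of 14 genes, with a median of 0.13 and a highest value of 0.57. Of 14 measured thymocyte markers 13 passed, among them Rag1 at 10.89 and 10.96 and Cd3g at 9.94 and 10.23, and thymocyte RNA was therefore part of both samples. Thymocyte ratios were below 0 in 10 of 14 genes, with a median of -0.05, where 51.7% of all named genes lay below 0. The 4 thymocyte markers above 0 included Cd4, at 7.25 and 7.07, and Themis, at 8.26 and 8.05, named after their values were seen. The cortical markers thus lay opposite to 7 of the 9 autoantigen genes and most thymocyte markers in the same direction, and the part of either in the autoantigen ratios was not tested. Pancreatic acinar markers had 2 of 10 past the filter, Cela2a at 5.89 and 5.88 and Cpa1 at 5.47 and 5.45. Medullary TEC markers had 12 of 15 past the filter, 80.0%, with Aire as the only gene 2-fold apart. Aire passed on the non-Tg array too, and the basal keratin gene Krt5, at 10.73 and 10.39, and the epithelial regulator Trp63, at 9.13 and 9.25, were bright on both arrays. Krt5 and Trp63 were the 2 brightest of the list, whose median was 5.86 on both arrays. Cd80, at 5.14 and 5.18, Spib, at 5.05 and 5.17, and Csn2, at 4.99 and 5.15, did not pass. All of these genes other than Aire were named after their values were seen. RNA of some genes used as medullary markers was therefore also part of both samples.

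Macrophage and dendritic cell markers had 3 of 12 past the filter, which 57.3% of all named genes passed. Among the 3, Tyrobp, a signalling adaptor, had 6.08 and 6.66 and Mrc1, the mannose receptor, 5.999 and 5.85. Ratios in this list lay above 0 for 8 genes and below 0 for 3. Itgam, at 4.64 and 4.63, and Itgax, at 4.66 and 4.72, both named after their values were seen, lay under the floor. B cell markers had 2 of 7, Ebf1 at 5.57 and 5.93 and Pax5 at 5.53 and 5.57. Cd79a, at 4.43 and 4.67, and Ms4a1, at 4.47 and 4.57, lay under the floor of 4.80 on both arrays. Both were named after their values were seen. Fibroblast markers had 5 of 8, 62.5% and thus near the share of all named genes, with Postn at 8.09 and 7.59 and Dcn at 8.001 and 7.72. Endothelial markers had 5 of 7, 71.4%, with Cdh5 at 7.87 and 8.02 and Pecam1 at 7.30 and 6.82. In these 4 lists 0 genes were 2-fold apart.

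Genes with levels most like those of Chga were sought over the 2 arrays, with the Euclidean distance between the pairs of log2 levels as the measure. The nearest were 2610528A11Rik at a distance of 0.0101, Klhdc8b at 0.0102 and Kcnmb4 at 0.0145. With 2 values per gene this likeness describes the level and the ratio only.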

How the data were processed

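Gene expression was measured on 1 array per genotype. Per the labels' protocols, 400 pg of total RNA was amplified to cDNA, of which 5.5 µg was fragmented and labelled with biotin. The values as deposited were taken to be log2 levels from their range of 4.22 to 13.7. What background correction, normalization and genome build the authors used is not stated in these sources. No values of other samples were in the table, and scan dates and detection calls were not used, so batches were not examined. The number of arrays limits precision.

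GEO's platform annotation supplied the names: 21789 probe sets had 1 symbol, 1621 several and 5446 none. A RefSeq gene table of GRCm38.p6 held the gene IDs of 21698 of the first kind, with 0 differing symbols. A gene stood for its probe set with the highest mean. Values were used as deposited. For calls, values under the floor of 4.80 were raised to it, and a gene was counted if it passed the filter and differed at least 2-fold. The tools were numpy 2.4.6, pandas 2.3.3 and matplotlib 3.10.9 under Python 3.11.15.

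The autoantigen genes and the other lists were chosen with earlier results of these data known. The rule for named genes took every autoantigen gene, Aire and Psmb11, and of each list up to 4 genes beyond 2-fold or else the 2 brightest. The alternatives changed the floor, scaling, filter, fold or probe set.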

Additional observations from a re-analysis of the deposited data

How the results depend on the processing

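Under 10 alternatives (no floor or a floor at the 50th percentile, subtraction of the array median, quantile normalization, the mean or the lowest probe set of a gene, probe sets with several symbols taken in, no filter or one at the 75th percentile, and a 1.5-fold threshold), 0 of the 9 autoantigen genes were called apart in each. The 3 alternatives on probe sets could not change a value, since each gene has 1 probe set and none is listed with several symbols. With the filter at the 75th percentile, 0 of the 9 genes passed in place of 1, so that none could be called there. The widest difference, that of Chga, was 1.31-fold as deposited, under the 2-fold and the 1.5-fold threshold. The count of 0 over the alternatives follows from this and adds no support. The median log2 ratio with the floor was -0.09 and ranged from -0.10 to 0 over the alternatives that could change it, and that of Chga ranged from -0.39 to -0.35. No ratio turned its sign, which a change of floor cannot bring about. None moved by more than 0.147, under the SD of 0.302 for 1 probe set that was used as the tolerance. That tolerance is wider than 8 of the 9 ratios themselves. With the floor at the 50th percentile, every ratio other than those of Chga and Ptprn2 was 0. No paired analysis was possible because each group has 1 array. Low signal over background limits all 9 genes on the Tg array, where 0 reached the 50th percentile, and 8 of the 9 on the non-Tg array. At such levels a change that stays near background was not detectable.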
